A study of Mus musculus with 2 samples.

Results

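Toll-like receptors, their lipopolysaccharide co-receptors and their first signalling proteins were examined in macrophages sorted from fetal mouse liver. The group held 10 genes: the receptors Tlr1, Tlr2, Tlr4, Tlr7, Tlr8 and Tlr13, the co-receptors Cd14 and Ly96, the adaptor Myd88 and the kinase Irak4. A probe set, the short probes that an Affymetrix array carries for a transcript, was taken for a member where the platform annotation names that gene alone, under its present or an older symbol. This gave 14 probe sets for 9 of the 10 genes, out of 34945 probe sets that name a single gene. Irak4 had no probe set of this kind and is not analysed here.

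The study compared c-Maf-/- with c-Maf+/+ (wild-type) embryos of the C57BL/6J strain at E15.5 of embryonic development, with 1 array for each genotype. The transcription factor c-Maf, encoded by Maf, belongs to the leucine zipper class and is made in macrophages. Fetal liver cells double positive for Mac-1 (CD11b) and F4/80 were collected by flow sorting, and neither group was treated. The sources used here do not say whether a sample held 1 embryo or several. With 1 array per genotype there is no replicate spread, no test and no p-value, and the number of arrays limits the precision of every value below.

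Toll-like receptors detect microbial lipids, proteins and nucleic acids, some at the cell surface and some inside endosomes. A bound receptor recruits adaptor proteins through a shared cytoplasmic domain, the TIR domain. MyD88 is the adaptor used by most of them, and it assembles IRAK kinases into a complex that leads to NF-kB activation and cytokine transcription. In macrophages this pathway starts the response to bacteria.

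After both arrays were brought to a common distribution of signals, 0 of the 8 measured member probe sets were at least 2-fold lower on the c-Maf-/- array and 0 were higher by that factor. Of these, 5 lay above the floor of measurement on both arrays and were within 2-fold, and 3 gave only a bound that fell short of it. Ratios and bounds ran from -0.52 for Tlr1 to 0.65 for a Tlr4 probe set on the log2 scale (c-Maf-/- over wild type), with 4 below 0 and 4 above. The median was -0.09, beside 0.01 over all 27756 measured probe sets. Among those, 9.01% passed the 2-fold line downwards and 8.41% passed it upwards, so that 0.72 lower and 0.67 higher would make the same shares of 8. A count of 0 among 8 therefore lies near the background and sets the members apart in neither direction.

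The scale behind these ratios is as follows. The deposited values are linear intensities, and the c-Maf-/- array was the dimmer one, with a median signal of 2.98, against 4.73 on the wild-type array. The 18 hybridisation control probe sets did not share this shift, with a median log2 ratio of 0.24 (SD 0.09) as deposited. Where the shift comes from was not tested. Quantile normalization removes that shift in either case, and the resulting log2 ratio is called level-adjusted. Signals under 3.75, the median of all normalized values, were raised to that floor before the ratio was taken. A probe set under the floor on 1 array therefore gives only a bound, and 1 under it on both arrays gives no ratio and is counted as not measured. The only yardstick for the size of a ratio is the spread between probe sets of the same gene. Its SD was 0.64 log2 units in 1315 genes with a normalized signal of at least 15.0. Among dimmer probe sets above the floor on both arrays the SD was 0.67 (1399 genes). This spread leaves out variation between embryos, sorts and arrays. The 5 member probe sets above the floor on both arrays each had a level-adjusted ratio smaller than either SD. The other 3 are bounds and cannot be set against it.

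Signals given from here on are the deposited intensities unless the text says level-adjusted. A signal depends on the probes as well as on the transcript, so signals are compared between the arrays for 1 probe set, never between probe sets.

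**Figure D1:**
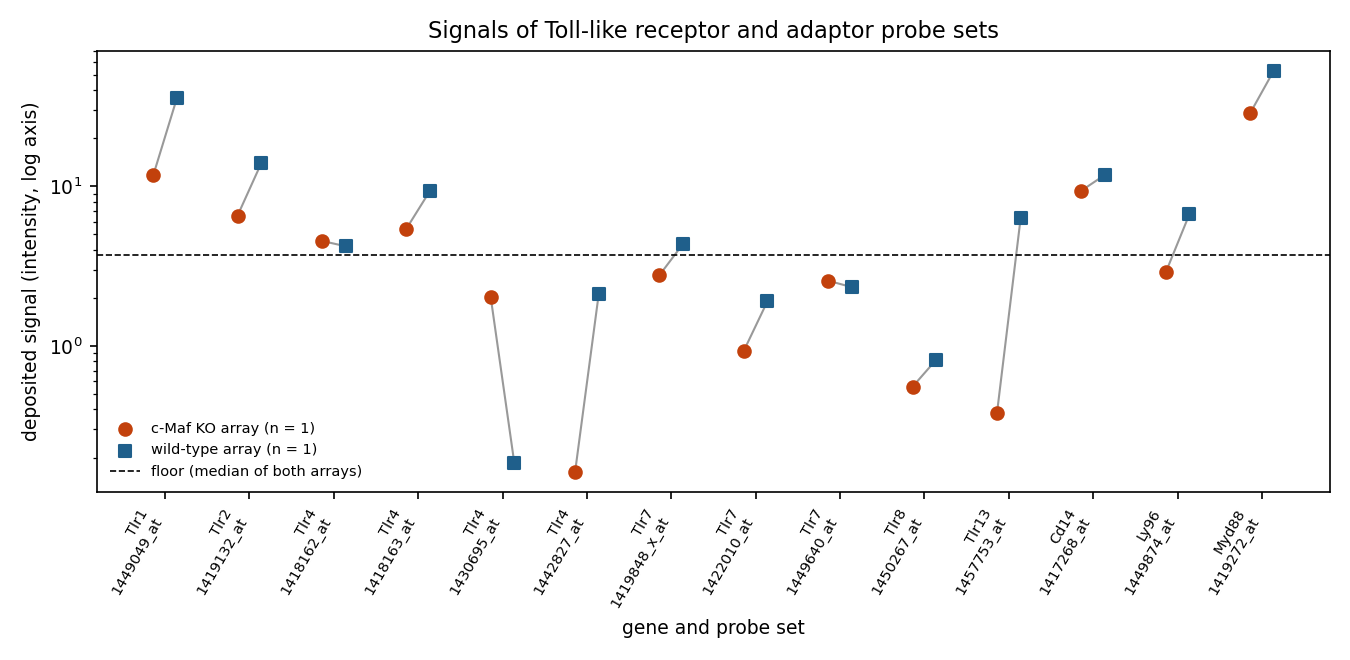
Deposited signal (intensity, log axis) of the 14 member probe sets on the c-Maf-/- array (circles, left) and the wild-type array (squares, right), 1 array each, with the floor of 3.70 for deposited values as a dashed line. The c-Maf-/- signal is the lower one for 11 of 14 probe sets, and 5 probe sets, 2 of Tlr4, 2 of Tlr7 and that of Tlr8, lie under the line on both arrays.

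Tlr1, the receptor that pairs with Tlr2 to recognise triacylated bacterial lipopeptides, had a signal of 11.7 on the c-Maf-/- array and 35.6 on the wild-type array. This is 3.04-fold lower as deposited, and a level-adjusted log2 ratio of -0.52. Its place among all probe sets of the same array was the 84.9th percentile in c-Maf-/- and the 89.1st in wild type. Tlr1 stood below 0 under each of the 8 alternative scalings and floors, between -1.85 and -0.44. Its level-adjusted ratio was nevertheless within the spread between probe sets of a gene (SD 0.64), as was the ratio centred within signal bins (-0.50). The other rescalings put it past that size: -0.94 with equal medians, -0.76 median-centred, -1.60 as deposited and -1.85 with the hybridisation controls.

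Tlr2, the shared partner in lipopeptide recognition, had a signal of 6.56 in c-Maf-/- and 13.9 in wild type. It was 2.12-fold lower as deposited, and its level-adjusted ratio was -0.19. Its alternatives ran from -1.33 to -0.13, so Tlr2 too was below 0 in each. Most of the deposited difference of Tlr2 was thus shared with the array as a whole, since the median probe set was at -0.69 as deposited.

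Tlr4, the signalling receptor for lipopolysaccharide, had 4 probe sets, of which 2 were measured, both designed on the same source transcript. The first of these (1418163_at) had a signal of 5.42 in c-Maf-/- and 9.36 in wild type, with a level-adjusted ratio of 0.01. The second (1418162_at) had 4.54 in c-Maf-/- and 4.21 in wild type. It lay below the normalized floor in wild type, which makes it at least 1.57-fold higher after level adjustment (0.65). Neither measured Tlr4 probe set was thus lower after level adjustment, while as deposited they went in opposite directions (-0.79 and 0.11).

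The other Tlr4 probe sets went in opposite directions under the floor. Probe set 1430695_at had 2.02 in c-Maf-/- and 0.184 in wild type, and 1442827_at had 0.163 in c-Maf-/- and 2.11 in wild type. Each signal lay under the floor, so no ratio is given for them.

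Tlr13, Tlr7 and Tlr8 are receptors of endosomes. Tlr13, which in mice recognises bacterial ribosomal RNA, had a signal of 0.380 in c-Maf-/- and 6.28 in wild type. Of all member probe sets above the floor on an array, its 2 signals stand furthest apart on the log axis of the plot of member signals. Because the c-Maf-/- signal lies under the floor, only a bound holds, at least 1.31-fold lower after level adjustment (-0.39). The size rests on where the floor is set: the bound was -2.29 with the floor at the 25th percentile. With the floor used as a pseudocount the value was -1.03. With deposited ratios centred on the median probe set the bound was 0.08, an upper limit that does not place Tlr13 above 0. Tlr13 had 1 probe set, so no second probe set that names it alone was there to compare.

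Tlr7, a receptor for single-stranded RNA, had 3 probe sets and 0 of them were measured. Probe set 1419848_x_at had 2.78 in c-Maf-/- and 4.36 in wild type, with the wild-type signal just over the floor for deposited values. The others had 0.934 in c-Maf-/- and 1.91 in wild type (1422010_at), and 2.56 in c-Maf-/- and 2.34 in wild type (1449640_at). Tlr8, the gene next of kin to Tlr7, had 0.556 in c-Maf-/- and 0.820 in wild type. For Tlr7 and Tlr8 the arrays showed no signal over the floor after level adjustment, so a difference between genotypes was not measurable. Over all probe sets 38.4% were below the floor on both arrays, beside 6 of the 14 member probe sets.

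Cd14, a membrane-anchored protein that hands lipopolysaccharide to the Tlr4 complex, had a signal of 9.38 in c-Maf-/- and 11.8 in wild type. Its level-adjusted ratio was 0.61, or 1.52-fold higher. Cd14 stood at the 81.6th percentile of its array in c-Maf-/- and at the 73.8th in wild type. It was above 0 under 6 of 8 alternatives, and below 0 as deposited (-0.33) and with the hybridisation controls as reference (-0.57). Of those above 0, the rescalings were equal medians (0.34), median-centred ratios (0.51) and ratios centred within signal bins (0.58). The others changed the floor alone. The direction of Cd14 therefore depends on the scaling.

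Ly96, whose product sits on the outer part of Tlr4 and binds the lipid of lipopolysaccharide, had a signal of 2.88 in c-Maf-/- and 6.66 in wild type. It was under the floor in c-Maf-/-, at least 1.38-fold lower after level adjustment (-0.47). All 7 alternatives that gave a value were below 0, from -0.98 to -0.01. Thus the 2 co-receptor genes stood on opposite sides of 0 after level adjustment, Cd14 within 2-fold and Ly96 by a bound only.

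Myd88, the adaptor, had a signal of 28.6 in c-Maf-/- and 52.8 in wild type. It was 1.84-fold lower as deposited, while its level-adjusted ratio was 0.27. Its place among all probe sets was nearly the same on both arrays, the 93.6th percentile in c-Maf-/- and the 92.4th in wild type. The sign followed the scaling, with 4 alternatives below 0 and 4 above, from -1.12 to 0.29. Those below 0 were all rescalings: as deposited (-0.88), equal medians (-0.22), median-centred ratios (-0.04) and the hybridisation controls (-1.12). Of those above 0, only the ratio centred within signal bins (0.29) was a rescaling, and the others changed the floor alone.

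**Figure D2:**
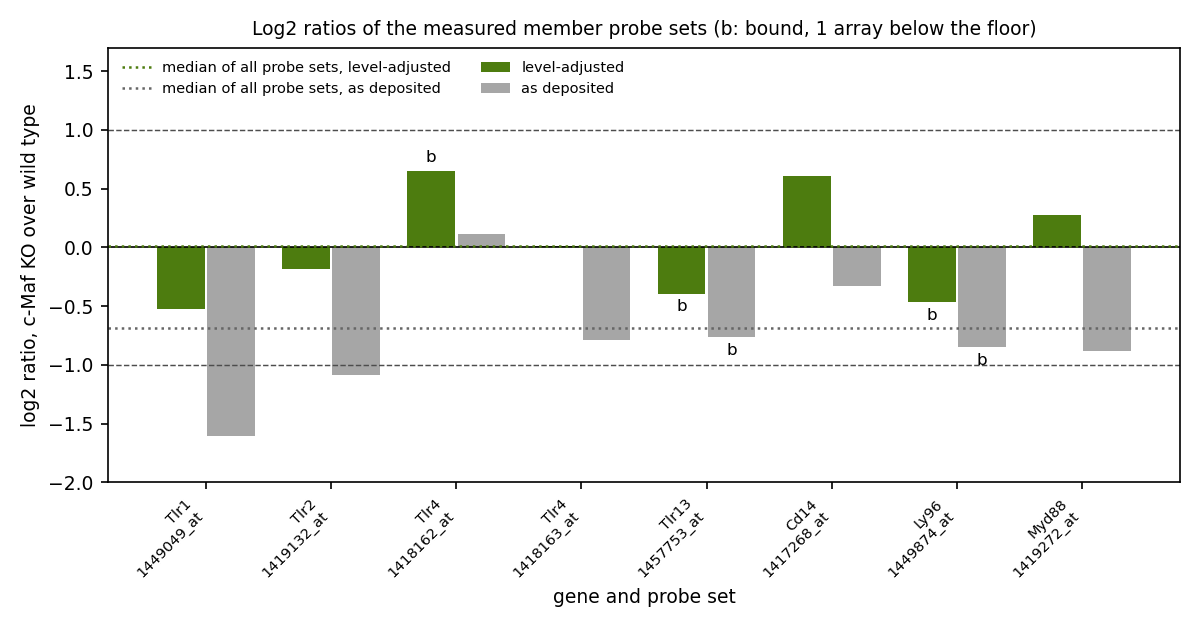
Log2 ratio of c-Maf-/- over wild type for the 8 measured member probe sets, level-adjusted (green) and as deposited (grey); b marks a bound, the dashed lines mark 2-fold, and the dotted lines are medians over all probe sets. Level-adjusted ratios lie between -0.52 and 0.65, and as deposited Tlr1 and Tlr2 pass the lower line.

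On the deposited scale 2 of 9 measured member probe sets were at least 2-fold lower, those of Tlr1 and Tlr2, and 0 were higher by that factor. Over all probe sets 35.1% passed the lower line on that scale and 1.2% the upper, and 3.16 of 9 would make the first share. The member median was -0.79 as deposited, beside -0.69 over all probe sets. On this scale as well, the members were not lower more often than the array as a whole.

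**Figure D3:**
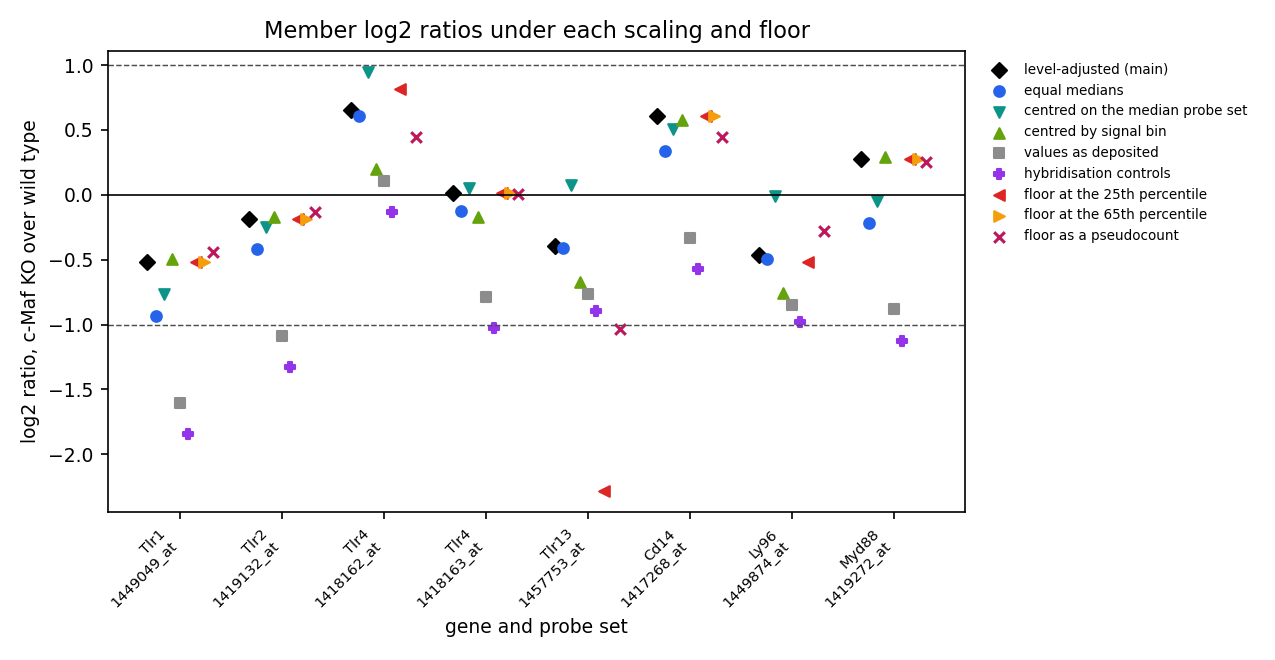
Log2 ratio of c-Maf-/- over wild type for the 8 measured member probe sets under the level adjustment (black diamonds) and 8 alternative scalings and floors; the dashed lines mark 2-fold. Tlr1 and Tlr2 stay below 0 in each, and Myd88 and Cd14 lie on both sides of 0. The values of Tlr13 span the widest range, from -2.29 to 0.08, and both ends are upper bounds.

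c-Maf binds DNA, so the bases before annotated transcript starts of member genes were searched for its recognition sequence. RefSeq promoter windows (GRCm38.p6) were given for 6 member genes with 7 windows: Tlr1, Tlr2, Tlr8, Tlr13, Myd88 and Irak4. The 250 bases before each start were read on both strands for TGCTGA, the arm of the Maf recognition element, for TGANTCA, the AP-1 element that overlaps the middle of that element, and for GAGGAAGT, a site of the myeloid factor PU.1. TGCTGA and TGANTCA were each in 0 of the 7 windows, beside 16.1% and 6.75% of all 32851 windows of that length. GAGGAAGT was in 1 of 7, beside 2.44% of all, and lies 23 bases before the start of a Tlr1 transcript. The annotated span of Tlr1, on the minus strand, reaches to base 64933600, so this match lies within the gene. The other Tlr1 window is inside that span as well, and the windows of Tlr2 and Irak4 run into theirs. Capitals mark the Tlr1 match in the 30 bases around it (chr5:64933563-64933592, minus strand).
Tlr1: attaaatgttgGAGGAAGTaggagcttgaa
GAAANNGAA, the core that interferon regulatory factors bind, was added after the Myd88 window had been read. It was in 2 of 7 windows, those of Myd88 and Tlr8, beside 7.13% of all, and the capitals mark it in the 250 bases before the Myd88 start (chr9:119340019-119340268, minus strand).
Myd88: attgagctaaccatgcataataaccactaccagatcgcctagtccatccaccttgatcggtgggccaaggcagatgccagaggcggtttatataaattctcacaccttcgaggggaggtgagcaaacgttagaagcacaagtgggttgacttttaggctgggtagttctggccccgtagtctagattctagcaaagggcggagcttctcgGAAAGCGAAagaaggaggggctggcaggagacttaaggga
These windows are shown because both genes were above the floor on both arrays and each holds a match to 1 of the 4 patterns. A match describes letters only, and the arrays hold no measure of binding.

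The genes around the members in the pathway came from 8 lists of 78 genes in all, each gene read by its brightest probe set as deposited, averaged over both arrays. Of these, 70 had a probe set and 64 were measured. After level adjustment 9 genes passed the lower line and 9 the upper, 14.1% in each direction. A further 36 lay between the lines on both arrays, and 10 gave a bound short of 2-fold. Over all 13290 measured genes, 9.05% were lower and 8.34% higher, the shares to set beside the counts of each list below. As deposited, 28 of 66 pathway genes were at least 2-fold lower and 0 higher, beside 39.8% and 1.19% of all 13479 genes. The pathway median was -0.18, beside 0.01 over all genes.

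Of the 6 other Toll-like receptor genes, 5 had a probe set and 3 were measured, 2 of them within 2-fold and 1 by a bound only. Tlr6, the other partner of Tlr2, had 3.29 in c-Maf-/- and 7.05 in wild type (-0.39). Tlr9, the receptor for bacterial DNA, had 4.38 in c-Maf-/- and 7.26 in wild type (0.01), and Tlr5, the flagellin receptor, 1.76 in c-Maf-/- and 4.96 in wild type, at least 1.05-fold lower.

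Proteins that fold, transport or assist the receptors had 1 of 9 genes at least 2-fold lower, 1 higher, 6 within 2-fold and 1 known by a bound short of it, with a level-adjusted median of -0.57. Hsp90b1, the endoplasmic reticulum chaperone that most Toll-like receptors need to fold, had 97.2 in c-Maf-/- and 738 in wild type (-1.86). Its second probe set had 41.0 in c-Maf-/- and 67.4 in wild type, and a level-adjusted ratio of 0.46, so the probe sets of Hsp90b1 did not share a direction. Cd36, a scavenger receptor that assists Tlr2, had 8.52 in c-Maf-/- and 7.60 in wild type (1.04), while its other probe sets were bounds on opposite sides, at least 3.05-fold higher (1.61) and -0.07. Cd36 was at -0.08 with the hybridisation controls as reference. Ly86, the partner of the receptor-like protein Cd180, had 47.4 in c-Maf-/- and 165 in wild type (-0.62). Unc93b1, which carries the nucleic acid receptors to endosomes, had 23.7 in c-Maf-/- and 71.5 in wild type (-0.43).

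The other adaptors with a TIR domain or that link to it had 3 measured genes of 5 listed, 2 of which were within 2-fold while 1 gave just a bound. Tirap, which bridges Tlr2 and Tlr4 to MyD88, gave no single answer: 1 probe set had 5.87 in c-Maf-/- and 5.39 in wild type (0.88), and another 0.912 in c-Maf-/- and 9.74 in wild type, at -0.97 as a bound. Ticam1, the adaptor of Tlr3 and of the endosomal arm of Tlr4, had 1.32 in c-Maf-/- and 6.67 in wild type, at least 1.38-fold lower. Pik3ap1, the brightest of this list, had 9.97 in c-Maf-/- and 22.8 in wild type (-0.16).

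Kinases and ubiquitin ligases that act below the adaptors had 3 of 15 measured genes at least 2-fold lower, 0 higher and 12 within 2-fold. Tbk1, a kinase of the interferon branch, had 10.6 in c-Maf-/- and 58.5 in wild type (-1.38), although its second probe set was at 0.15. Tab2, an adaptor of the kinase Tak1, had 69.9 in c-Maf-/- and 349 in wild type (-1.12), and its second probe set was at -0.85. Traf6, the ubiquitin ligase that IRAK kinases activate, had 5.21 in c-Maf-/- and 21.3 in wild type (-1.12), with -0.67 for its other measured probe set. Irak1, the kinase that Irak4 phosphorylates, had 362 in c-Maf-/- and 1061 in wild type (-0.66), and its 3 other probe sets ran from -0.80 to 0.12. Tab2 and Traf6 were thus the genes at least 2-fold lower here whose measured probe sets shared a direction.

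Of 7 measured brakes of the pathway, 2 were at least 2-fold lower and 1 was higher by that factor. Irak3, a kinase-like protein that restrains IRAK signalling in macrophages, had 8.95 in c-Maf-/- and 6.12 in wild type (1.40) and was above 0 in each of 8 alternatives. Rnf216, a ubiquitin ligase, had 4.94 in c-Maf-/- and 20.02 in wild type (-1.12). Cyld, a deubiquitinase, had 9.06 in c-Maf-/- and 39.2 in wild type (-1.05), with its other measured probe sets at -1.22 as a bound and -0.19.

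Interleukin-1 family receptors, which signal through the same adaptor, had 1 of 4 measured genes at least 2-fold higher and 0 lower. That gene was Il1rl2, an interleukin-36 receptor chain, with 5.67 in c-Maf-/- and 3.91 in wild type, at least 2.01-fold higher. Genes that Toll-like receptor ligands induce in macrophages had 4 of 13 measured members at least 2-fold higher, beside 8.34% of all genes. Another 4 were within 2-fold and 5 were known only by a bound short of 2-fold. The level-adjusted median was 0.37 and the deposited median -0.37. As deposited 0 of 13 were at least 2-fold higher and 1 was lower by that factor. Il1b, encoding interleukin-1 beta, had 7.67 in c-Maf-/- and 5.07 in wild type (1.41). Cxcl2, a neutrophil chemokine, had 8.29 in c-Maf-/- and 5.97 in wild type (1.31). Socs3, an inhibitor of cytokine signalling, had 13.2 in c-Maf-/- and 11.0 in wild type (1.23), and Ptgs2, the inducible cyclooxygenase, 5.73 in c-Maf-/- and 2.69 in wild type, at least 2.03-fold higher. The other Socs3 probe sets were at 1.67 and -0.15, and the other Ptgs2 probe set was at -0.32 as a bound. Il1b, Cxcl2, Socs3 and Ptgs2 were above 0 in each of 8 alternatives. They passed 2-fold upwards in 4 alternatives for Il1b, Cxcl2 and Socs3, and in 2 for Ptgs2. Nfkbia, the brightest gene of the list, had 400 in c-Maf-/- and 921 in wild type (-0.28), and its 4 other probe sets ran from -1.065 to 0.16. Tnf, the cytokine most used to read out the pathway, was under the floor in c-Maf-/- (0.806) and at 4.97 in wild type, at least 1.05-fold lower.

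Innate sensors outside the family were the list with the most genes at least 2-fold lower or higher, 3 lower and 2 higher of 10 measured. Sting1, the adaptor of cytosolic DNA sensing, had 4.21 in c-Maf-/- and 33.8 in wild type (-2.08), and its second probe set was at least 3.24-fold lower (-1.69). Cgas, the DNA sensor before it, had 9.64 in c-Maf-/- and 56.4 in wild type (-1.46), with -0.79 for its second probe set. Mavs, the adaptor of the cytosolic RNA sensors, had 4.33 in c-Maf-/- and 18.1 in wild type (-1.19), with -1.12 as a bound for its second. Ifih1, an RNA sensor, had 10.7 in c-Maf-/- and 7.80 in wild type (1.35). Casp1, the inflammasome protease, had 21.3 in c-Maf-/- and 21.6 in wild type (1.07) and was below 0 under 2 of 8 alternatives. Sting1, Cgas and Mavs were below 0 in each of their 8 alternatives.

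**Figure D4:**
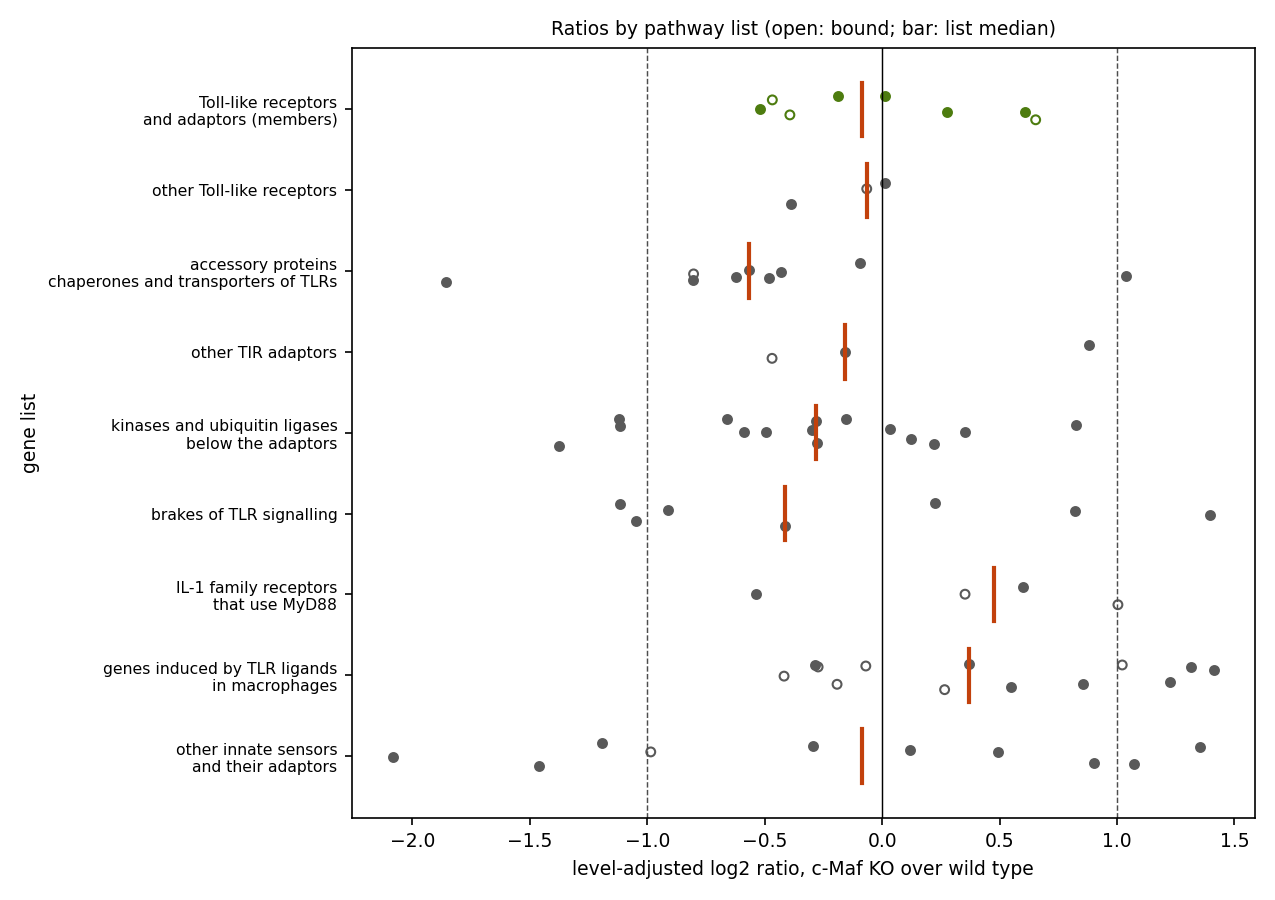
Level-adjusted log2 ratio of c-Maf-/- over wild type for the 8 measured member probe sets (top row, green) and for measured genes of the 8 pathway lists (grey); open symbols are bounds, red bars list medians, dashed lines 2-fold. Member ratios lie between -0.52 and 0.65, while Sting1 in the bottom row reaches -2.08 and Il1b reaches 1.41.

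Several members are also transcribed in monocytes and granulocytes, and in this RNA a smaller number of such cells and less RNA per cell cannot be told apart. Monocyte markers had 6 of 7 genes with a probe set and a summed signal of 1039 in c-Maf-/- and 2708 in wild type. Their level-adjusted median was -0.93, with 2 at least 2-fold lower and 2 higher. Granulocyte markers, 11 of 12 with a probe set, summed to 8295 in c-Maf-/- and 13967 in wild type (median -0.32, 3 lower, 0 higher). S100a8 and S100a9, abundant calcium-binding proteins of granulocytes, were at 0.00 and 0.07 after level adjustment, and at -0.51 and -0.37 as deposited. The 3 granulocyte markers at least 2-fold lower were Camp (-1.62), Mpo (-1.19) and Csf3r (-1.11), while Mmp8 was the highest of the list (0.65). Macrophage markers, all 12 with a probe set, summed to 553 in c-Maf-/- and 1017 in wild type (median 0.41, 0 lower, 4 higher), and Csf1r alone gave 248 of the sum in c-Maf-/- and 625 in wild type. These sums are of deposited signals, not adjusted for the dimmer array, while the counts are level-adjusted. As deposited, 4 of 6 measured monocyte, 6 of 11 granulocyte and 3 of 12 macrophage markers were at least 2-fold lower, and 0 of each were higher. Over all genes 39.8% were lower and 1.19% higher as deposited, and 9.05% and 8.34% after level adjustment. Adgre1, encoding F4/80, had 48.1 in c-Maf-/- and 71.4 in wild type, below 0 as deposited (-0.57) and above it after level adjustment (0.60). Itgam, encoding the sorted CD11b, was near the floor with 3.94 in c-Maf-/- and 5.76 in wild type (-0.55 as deposited, 0.16 after level adjustment). Hepatoblast markers summed to 534 in c-Maf-/- and 333 in wild type, and 1 of 7 was below the floor on both arrays. After level adjustment 6 of 6 measured were at least 2-fold higher, and as deposited 3 of 6 were, with 0 lower. Level-adjusted medians of the other lists were -0.61 for B lymphoid, -0.19 for mast cell and basophil, 0.14 for endothelial, 0.20 for megakaryocyte, 0.23 for dendritic and 0.24 for erythroid markers. No marker had a deposited signal of exactly 0. The part of these cells in the member values was not tested.

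**Figure D5:**
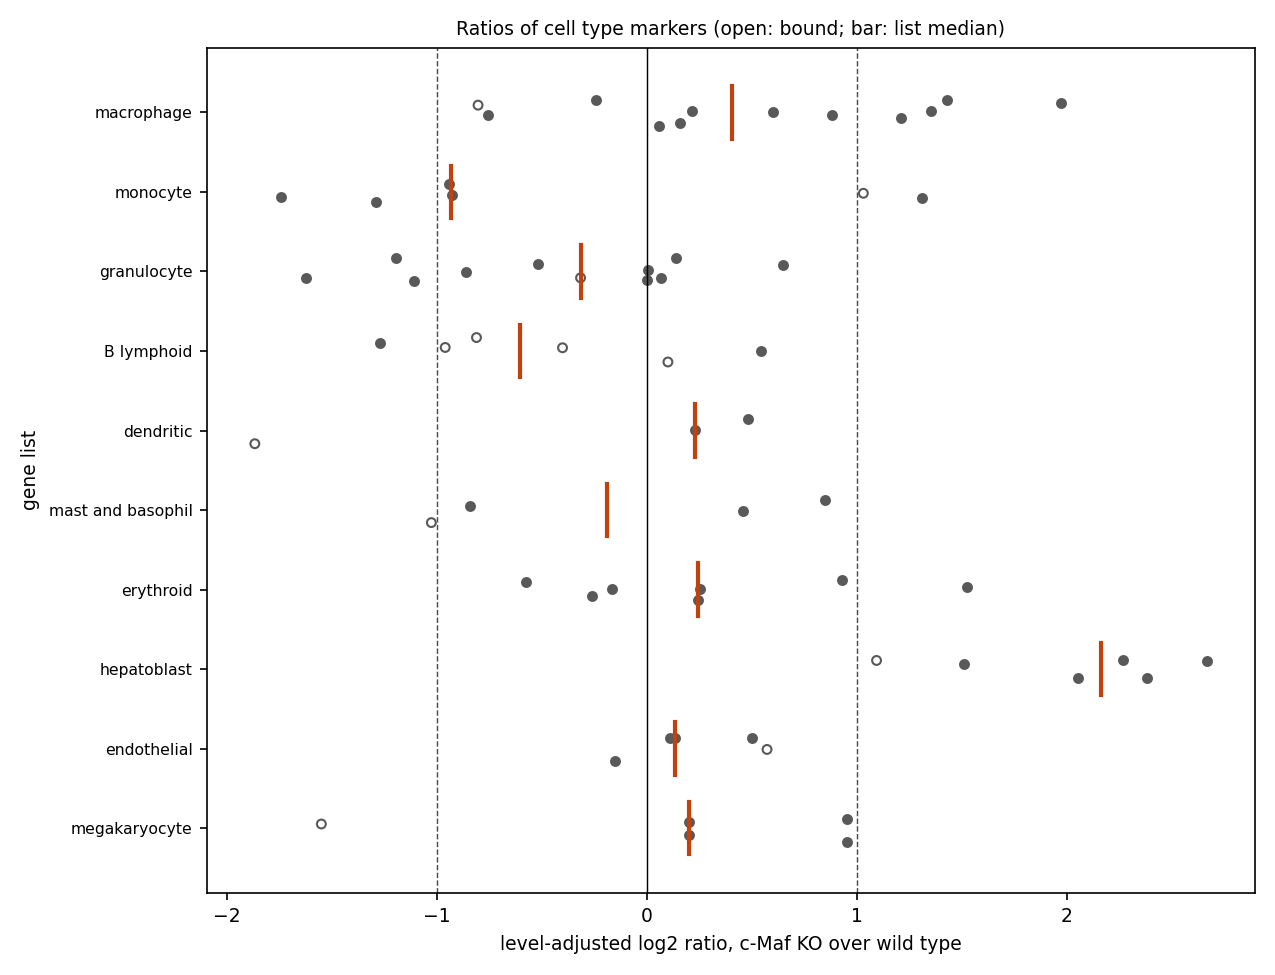
Level-adjusted log2 ratio of c-Maf-/- over wild type for measured genes of 10 cell type marker lists; open symbols are bounds, red bars list medians, dashed lines 2-fold. The hepatoblast median is 2.16 and the monocyte median is -0.93, while the macrophage median is 0.41.

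As a check of the labels, the Maf probe set with the highest signal had 0.219 in c-Maf-/- and 47.6 in wild type, at least 8.51-fold lower after level adjustment. Another had 0.143 in c-Maf-/- and 21.0 in wild type, and these 2 of 5 measured Maf probe sets were at least 2-fold lower. Of the others, 1 was above the floor on both arrays with 3.25 in c-Maf-/- and 4.96 in wild type (0.07), and bounds of at least 1.02- and 1.15-fold lower came from the remaining pair. It is not known here whether the deletion removes the sequence under these probes.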

How the data were processed

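Total RNA of sorted cells was biotin-labelled and hybridised to 1 Affymetrix array per genotype, per the labels' protocols. Each of 45101 probe sets had 1 deposited linear intensity per array. The sources used here do not state how the authors summarised, background-corrected or scaled them. Of the probe sets, 64 were manufacturer's controls, 34945 had 1 gene symbol in the platform annotation, 932 several and 9160 none; 34741 found their present symbol in the GRCm38.p6 gene table by Entrez number.

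Both arrays were quantile-normalized on log2 values, floored at the 50th percentile of all values, and the log2 ratio of c-Maf-/- over wild type was taken (Python 3.11.15, numpy 2.4.6, pandas 2.3.3). Each gene of a list was read by its brightest probe set as deposited, averaged over both arrays. The steps were tested on simulated data, with changes larger than 2-fold and in bright probe sets only. Dim signals, the floor and the bounds were not tested in this way. Thresholds were 2-fold, and no statistical test was possible. Each member probe set is described. Pathway genes at least 2-fold lower or higher are named, with up to 3 of the brightest others for some of the lists. Up to 2 of the brightest markers are named for granulocytes and macrophages only. Tnf, Adgre1, Itgam, Camp, Mpo, Csf3r and Mmp8 fall outside this rule, picked with their values in view. The members and lists were chosen with earlier results of these data known. Alternatives were values as deposited, equal medians, median-centred ratios, 18 hybridisation control probe sets as reference, the floor at the 25th percentile, at the 65th, or added as a pseudocount, probe sets without a suffix, thresholds of 1.5- and 3-fold, means over probe sets and, added after seeing the data, ratios centred within 20 signal bins.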

Additional observations from a re-analysis of the deposited data

How the results depend on the processing

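The count of member probe sets at least 2-fold lower was 0 of 8 after level adjustment and 2 of 9 as deposited. It was 4 of 9 with the hybridisation controls as reference. With the floor at the 25th percentile it was 1 of 13, and with the floor as a pseudocount 1 of 8. In the same order, the shares of all probe sets past that line were 9.01%, 35.1%, 43.7%, 20.4% and 9.23%. The count at least 2-fold higher was 0 of 8, beside 8.41% of all probe sets. It was 1 of 13 with the floor at the 25th percentile (20.1% of all) and 2 of 8 with a 1.5-fold threshold (21.0% of all). The member median, -0.09, was -0.79 as deposited and -0.98 with the hybridisation controls, where all probe sets had medians of -0.69 and -0.87. With those controls Tlr4 (1418163_at) was at -1.03 and Myd88 at -1.12, both opposite in sign to their level-adjusted ratios. Pathway genes at least 2-fold lower numbered 9 of 64 after level adjustment, 28 of 66 as deposited and 33 of 66 with the hybridisation controls. They numbered 15 of 70 with the floor at the 25th percentile, 16 of 64 with a 1.5-fold and 2 of 64 with a 3-fold threshold. In the same order, the shares of all probe sets past the line were 9.01%, 35.1%, 43.7%, 20.4%, 20.8% and 2.25%. With means over probe sets 5 pathway genes were lower. Pathway genes higher numbered 9 (8.41% of all probe sets). They numbered 0 as deposited (1.2% of all), with the hybridisation controls (0.70%), with the pseudocount (8.55%) and with a 3-fold threshold (1.52%). They numbered 4 with equal medians (4.92%), 4 with the floor at the 65th percentile (6.24%) and 15 with a 1.5-fold threshold (21.0%). As deposited all of the 28 pathway genes past 2-fold were lower, beside 9 lower and 9 higher after level adjustment. With the floor as a pseudocount 6 were lower and 0 higher, so both the scaling and the floor move this split. Of 61 alternative values for single member probe sets, 49 moved by less than the spread between probe sets of a gene, 10 moved by more and 2 changed sign past 2-fold. A floor at another percentile cannot move the ratio of a probe set that lies above it on both arrays. Part of the 49 was therefore fixed in advance. No replicate could be left out, and no paired analysis was possible because each genotype has 1 array. Detection calls were not used here, so the floor alone decides which signals count.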
